A study of Mus musculus with 14 samples.

Results

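miR-142 and miR-223 were measured in mouse plasma by 4 of the 389 named miRNA assays of a quantitative PCR screen. The assays were chosen by name, as those called miR-142 or miR-223 once the species prefix and the arm are left off: mmu-miR-142-3p, mmu-miR-142-5p, mmu-miR-223 and rno-miR-223, the last carrying the rat name. Plasma came from 8 mice with osteosarcoma (OS) and 6 wild-type control mice, 1 sample per mouse. The OS mice (labelled GEMM OS) belong to a genetically engineered line in which Cre under a Col-α1(I) promoter deletes floxed Trp53 in osteoblasts, and the labels do not say whether a given mouse had 1 or both alleles floxed. Controls were wild-type littermates, which by the methods had wild-type Trp53 and carried Cre as well. Blood was taken by cardiac puncture into EDTA, from the OS mice once a tumour had formed, and the labels give no age for single mice. The values are quantification cycles (Cq), which lie on a log2 scale with a lower Cq for a more abundant miRNA. All 4 assays lie on panel I of the pair of panels, and each gave a Cq under the background limit of 37 in each of the 14 mice.

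A miRNA is cut from a hairpin in which each side of the stem, the 5p arm and the 3p arm, can yield a mature strand of its own. miR-142 is made in nearly all blood-forming lineages, and both of its arms are loaded into silencing complexes. miR-223 is a myeloid miRNA that is abundant in neutrophils, monocytes and platelets and restrains granulocyte production in the mouse. Both reach plasma from blood cells, free or in vesicles. In plasma, release from fewer cells and less RNA per cell cannot be told apart.

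The sequences show which strand each assay is named for. RefSeq (GRCm38.p6) places Mir142 on the plus strand at chr11:87756864-87756927, with Mir142b annotated across it on the other strand, and Mir223 on the plus strand at chrX:96242817-96242926, within the long noncoding RNA gene F630028O10Rik. In the hairpins, written 5′ to 3′, the mature arms are in capitals, the 5p arm first.
Mir142 hairpin: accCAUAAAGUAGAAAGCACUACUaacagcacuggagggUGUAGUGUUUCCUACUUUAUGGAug
Mir223 hairpin: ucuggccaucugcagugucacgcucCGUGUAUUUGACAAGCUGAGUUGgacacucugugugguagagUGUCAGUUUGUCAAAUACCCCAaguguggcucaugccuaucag

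The name miR-223 without an arm stands for the 3p arm, and RefSeq names mouse miR-142 as miR-142a. In the mature strands, capitals mark the seed, bases 2 to 8, by which a miRNA pairs with its targets.
mmu-miR-142a-3p: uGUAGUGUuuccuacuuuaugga
mmu-miR-142a-5p: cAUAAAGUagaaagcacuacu
mmu-miR-223-3p: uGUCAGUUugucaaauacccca
The 3 seeds differ from each other, and each is shared by 0 of the other mature mouse miRNAs in the RefSeq table, which holds 1679 names. The RefSeq table used holds mouse sequences, so the rat assay of miR-223 has no sequence of its own here.

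miR-142-3p was the only member that limma called different between the groups. It was 11.8-fold lower in mice with OS, while miR-142-5p and both assays of miR-223 did not pass the test. A normalized level, in log2 units, is the global mean Cq of a mouse minus its Cq for the miRNA. In the OS mice miR-142-3p had normalized levels of 1.55, 1.95, 2.43, 2.92, 3.51, 3.66, 4.65 and 5.57, against 5.38, 6.13, 6.24, 6.55, 7.83 and 8.94 in the controls. Of the 8 OS mice, 7 lay below every control, and OS replicate 15 overlapped with control replicate 1. The mean was 3.28 ± 1.36 (SD, n = 8) in OS and 6.85 ± 1.30 (SD, n = 6) in controls, which differ by -3.57 with a 95% interval from -4.91 to -2.23 and a standard error of 0.64 (adjusted p = 0.00326 by limma over 388 miRNAs; p = 0.000999 by a two-sided exact permutation test). By p it stood 3rd and by the size of the fall 2nd among the miRNAs tested. Of the 4 members 1 was called lower and 0 higher, where 6.44% of all miRNAs were called lower (25) and 6.19% higher (24). That split depended on the scaling, which gave 11 lower and 22 higher with the 3 reference miRNAs of the study, 14 and 28 with the median, 12 and 40 with panel I, and 17 and 4 unscaled. Scaling to panel I moved the median of all miRNAs to 0.30, to the median to 0.14, and no scaling to -0.45, while miR-142-3p passed under each.

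**Figure D1:**
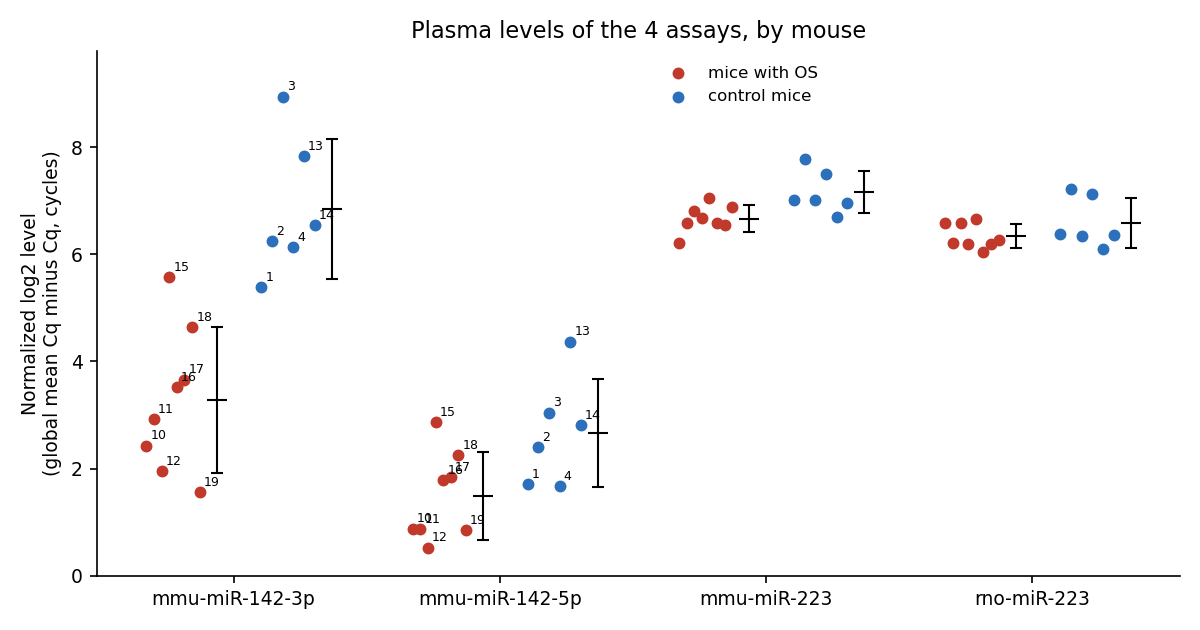
Normalized log2 levels (global mean Cq minus Cq) of the 4 assays in plasma. Each point is 1 mouse, with 8 mice with OS left of 6 controls for each assay; numbers beside the miR-142 points are replicate numbers, and bars are the mean and SD. miR-142-3p averaged 3.28 in OS and 6.85 in controls, while the groups lay closer for miR-142-5p, mmu-miR-223 and rno-miR-223.

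The Cq values as deposited show the same without any scaling. miR-142-3p had a Cq of 26.60 to 31.31 with a median of 28.51 in OS, against 22.76 to 27.46 with a median of 24.99 in controls. Among the 276 miRNAs measured in every mouse, ordered from the lowest Cq, it ranked 33 to 102 in the OS mice and 6 to 29 in the controls. How many of the other miRNAs were parted by rank was not counted. With scaling to the global mean, leaving out any 1 of the 14 mice gave log2 differences from -3.89 to -3.15, and limma called each of them.

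miR-142-5p, cut from the same hairpin, had levels of 0.53, 0.85, 0.87, 0.88, 1.78, 1.84, 2.26 and 2.86 in OS, against 1.67, 1.70, 2.40, 2.81, 3.04 and 4.37 in controls. The lower 4 OS mice lay below every control and the other 4 lay among them. The mean was 1.48 ± 0.83 (SD, n = 8) in OS and 2.67 ± 1.01 (SD, n = 6) in controls. The difference of -1.18 had a 95% interval from -2.17 to -0.20 and a standard error of 0.47, and did not pass (adjusted p = 0.106 by limma, p = 0.0313 by the exact permutation test). It passed without OS replicate 15 (-1.38, limma adjusted p = 0.0419) but not without any other single mouse.

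miR-223 was close to level by both assays. mmu-miR-223 had levels of 6.22, 6.56, 6.58, 6.58, 6.67, 6.81, 6.88 and 7.04 in OS, against 6.70, 6.96, 7.01, 7.01, 7.50 and 7.77 in controls. Here 5 OS mice lay below every control, and 2 controls lay above every OS mouse. The mean was 6.67 ± 0.25 (SD, n = 8) in OS and 7.16 ± 0.40 (SD, n = 6) in controls. The log2 difference of -0.49 (95% interval -1.09 to 0.11) did not pass limma (unadjusted p = 0.102, adjusted p = 0.242), whose standard error of 0.29 draws on the spread of all miRNAs. The exact permutation test, which uses this assay alone, gave p = 0.00966.
rno-miR-223 had levels of 6.04, 6.19, 6.20, 6.22, 6.27, 6.58, 6.59 and 6.65 in OS, against 6.10, 6.33, 6.36, 6.37, 7.12 and 7.22 in controls. The groups overlapped over most of their range, apart from control replicates 2 and 4, which were the highest by either assay. The log2 difference was -0.24, with a 95% interval from -0.85 to 0.37 (adjusted p = 0.602 by limma, p = 0.237 by the exact permutation test), and it turned to 0.06 when scaled to panel I alone. Unscaled, the log2 differences were -0.93 for the mouse assay and -0.68 for the rat assay. Neither passed limma (adjusted p = 0.185 and 0.366), and the exact permutation test of Cq gave p = 0.0170 and 0.0799.

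The spread between mice also set the 2 miRNAs apart. Among the 276 miRNAs measured in every mouse, the SD over OS mice of rno-miR-223 (0.23) was larger than that of only 1 miRNA and that of mmu-miR-223 (0.25) larger than that of 3, where the median SD was 0.84. For miR-142-3p (1.36) it was larger than that of 86.6% of the miRNAs, and for miR-142-5p (0.83) than 47.1%. In controls the SD was 1.30 for miR-142-3p, 1.01 for miR-142-5p, 0.40 for mmu-miR-223 and 0.47 for rno-miR-223, where the median was 0.68. These were larger than the SD of 89.9%, 79.7%, 14.5% and 25.0% of the miRNAs in turn, so miR-223 was less extreme there. The unscaled Cq in OS had an SD of 1.51, 0.97, 0.44 and 0.54 in the same order. Ordered by mean level, the OS mice had mmu-miR-223, rno-miR-223, miR-142-3p and miR-142-5p, and the controls had mmu-miR-223 (7.16), miR-142-3p (6.85), rno-miR-223 (6.58) and miR-142-5p (2.67). Levels of different assays include the efficiency of their primers, so this order describes the assays and not numbers of molecules. In controls miR-142-3p differed from mmu-miR-223 by -0.31 ± 1.51 and from rno-miR-223 by 0.26 ± 1.57 (SD, n = 6), within the spread between mice.

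Differences between 2 assays of the same mouse do not depend on the scaling between mice, and these wells also share panel I. The arms of miR-142 differed less in OS. miR-142-3p exceeded miR-142-5p by 0.70, 1.42, 1.55, 1.73, 1.82, 2.05, 2.39 and 2.71 cycles in the OS mice, against 3.46, 3.68, 3.74, 3.84, 4.46 and 5.90 cycles in the controls. Every OS mouse lay below every control. The mean was 1.80 ± 0.62 (SD, n = 8) in OS and 4.18 ± 0.91 (SD, n = 6) in controls, so that the 3p arm was 5.22-fold lower relative to the 5p arm (difference -2.38; exact permutation test, two-sided, p = 0.000333, the smallest that 8 mice against 6 allow; adjusted p = 0.00466 over 14 within-mouse differences). Mice with like levels of the 5p arm show it singly. OS replicate 15, with the 5p arm at Cq 29.31, had the 3p arm at 26.60, where control replicate 2 had 29.11 and 25.27. OS replicate 10, with the 5p arm at Cq 30.84, had the 3p arm at 29.29, where control replicates 1 and 4 had 27.46 and 25.98 with the 5p arm at 31.14 and 30.44.

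**Figure D2:**
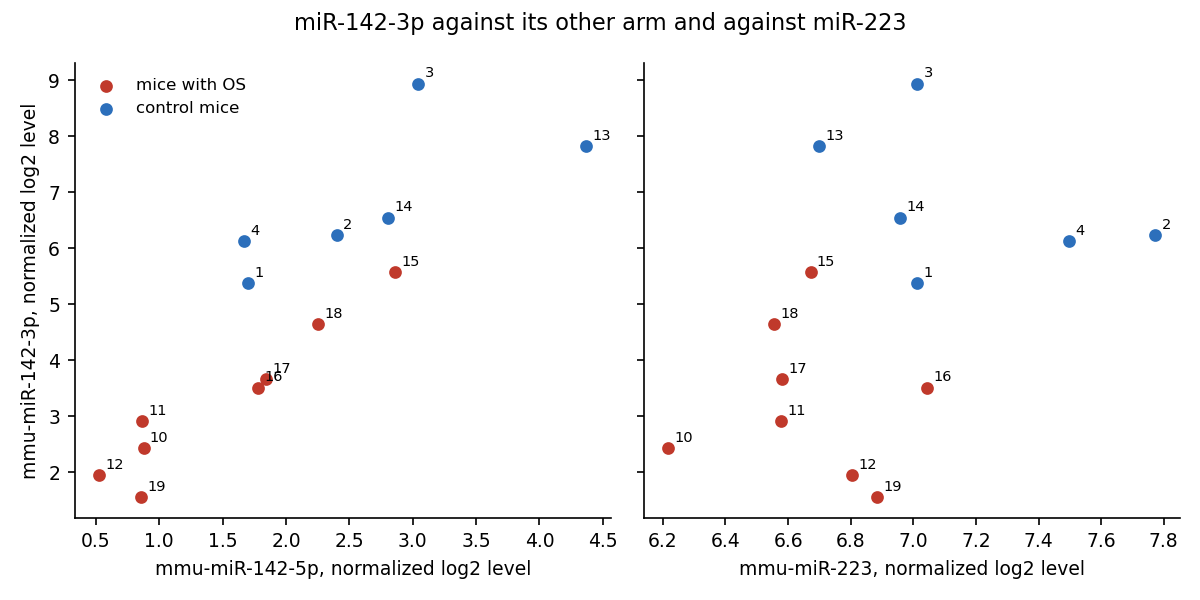
Normalized log2 level of mmu-miR-142-3p (vertical) against mmu-miR-142-5p (left) and mmu-miR-223 (right). Each point is 1 of 8 mice with OS or 6 control mice, labelled with its replicate number. On the left, OS mice lie lower than controls of like 5p level, as in OS replicate 15 (5.57) beside control replicate 14 (6.55).

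The arm difference was then taken over the 51 arm pairs that were measured in every mouse, in which a mouse and a rat pair count separately. These are the pairs named 3p and 5p and those of a miRNA and its starred strand, taken as the first minus the second. miR-142 had the largest change of all in either direction and the smallest p (-2.38 with a 95% interval from -3.24 to -1.52 and a standard error of 0.41, adjusted p = 0.000669 by limma). Of the 51 pairs 12 were called (23.5%), 9 of them lower in OS (17.6%) and 3 higher. The sign rests on which strand is named first, so this split gives no common direction. miR-142 was the only pair in which every OS mouse lay below every control (1.96%). The next largest fall was that of miR-141, an epithelial miRNA (-2.11), and the next after miR-142 by p was the fall of miR-322 (-1.83, limma adjusted p = 0.0204), both named after their values were seen. With the haemolysis marker described below as a covariate, miR-142 was the 1 pair that passed (-2.15, limma adjusted p = 0.00399), and it was again the 1 pair without the mice with a marker over 7 (-2.13, adjusted p = 0.00352). The number of called pairs rested on the mice, at 3 without control replicate 3, 6 without any 1 of OS replicates 10, 11 and 12 and control replicates 13 and 14, and 15 without OS replicate 15, while miR-142 passed in each of these fits.

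**Figure D3:**
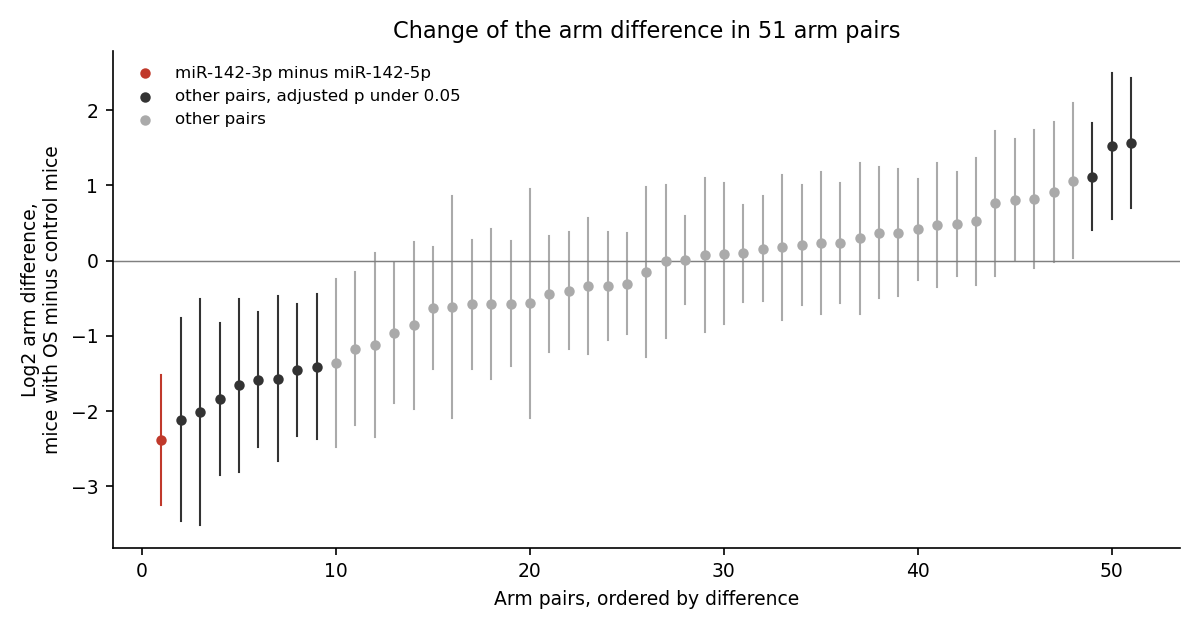
Log2 change of the difference between the 2 arms of a hairpin, mice with OS minus control mice, for 51 arm pairs ordered by size. Points are limma estimates and bars their 95% intervals over 8 OS and 6 control mice. miR-142, at -2.38, has the lowest estimate of all pairs, and other pairs past an adjusted p of 0.05 are drawn dark.

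miR-142-3p fell relative to miR-223 as well, so the difference between the 2 miRNAs was itself tested. miR-142-3p minus mmu-miR-223 was -5.33, -4.86, -3.79, -3.66, -3.53, -2.92, -1.91 and -1.10 in OS, against -1.63, -1.53, -1.37, -0.41, 1.13 and 1.93 in controls. OS replicate 15 alone overlapped with the controls. The mean was -3.39 ± 1.41 (SD, n = 8) in OS and -0.31 ± 1.51 (SD, n = 6) in controls, a difference of -3.07 or 8.42-fold (exact permutation p = 0.00233, adjusted p = 0.00699 over 9 differences). Against rno-miR-223 the difference was -3.32 (exact permutation p = 0.00200, adjusted p = 0.00699). Without control replicates 3 and 13, described below, the 2 differences were -2.15 and -2.37, each with an exact permutation adjusted p of 0.05, and no longer passed. For miR-142-5p set against the same assays, the change between groups was -0.69 (exact permutation adjusted p = 0.297) and -0.94 (adjusted p = 0.237). Neither passed, with standard errors of 0.61 and 0.64. miR-142-5p itself lay below mmu-miR-223 in both groups, by a mean of -5.18 in OS and -4.49 in controls.

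**Figure D4:**
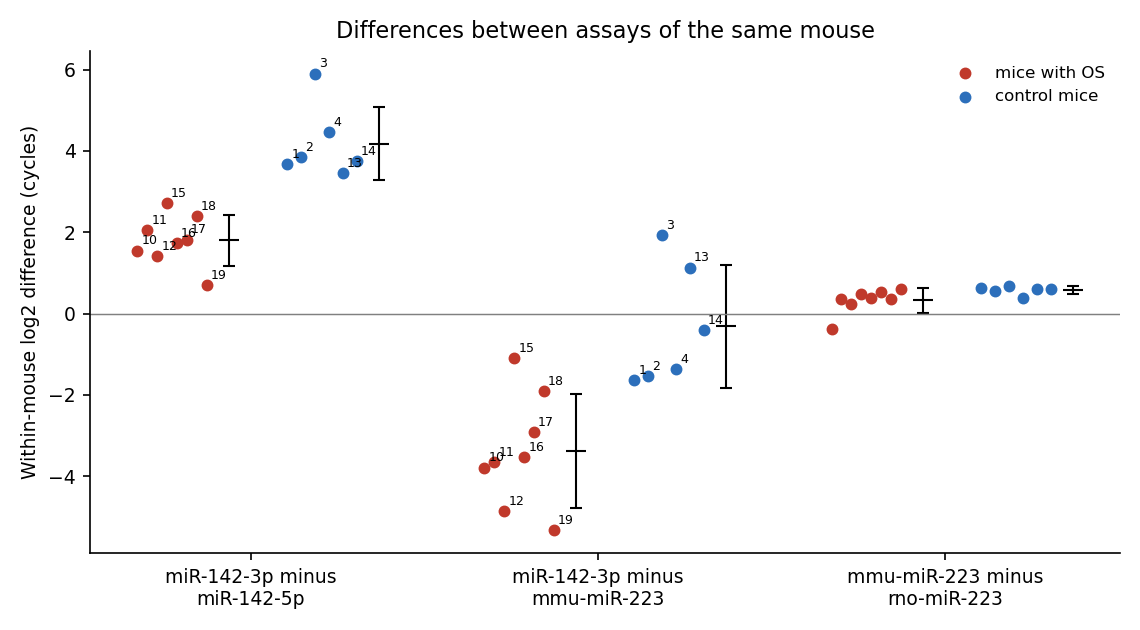
Within-mouse log2 differences between assays, in cycles, for 8 mice with OS left of 6 controls. Points are mice, numbers their replicates for the first pair of comparisons, and bars the mean and SD. The arm difference of miR-142 does not overlap between OS (0.70 to 2.71) and controls (3.46 to 5.90), while the 2 miR-223 assays stay within 1 cycle of each other.

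The assays of miR-223 gave near levels, with the mouse minus the rat assay at -0.37 to 0.68 cycles over the mice. Their r was 0.98 over the 6 controls but 0.19 over the 8 OS mice. In OS the SD of either assay (0.25 and 0.23) was below that of their difference. The mouse assay exceeded the rat assay by 0.43 ± 0.27 cycles (SD, n = 14), the 4th smallest SD of the 16 miRNAs measured under both names in every mouse, whose median SD was 0.44. The difference was 0.33 ± 0.30 (SD, n = 8) in OS and 0.58 ± 0.11 (SD, n = 6) in controls (exact permutation p = 0.0413, adjusted p = 0.0743). OS replicate 10, at -0.37, was the only mouse in which the rat assay was the higher, and the other OS mice lay between 0.23 and 0.61.

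Blood cells broken during sampling add their miRNAs to plasma. A marker of haemolysis, by which miR-451 of red blood cells is set against miR-23a (Cq of miR-23a minus that of miR-451), was 4.19 ± 1.94 (SD, n = 8) in OS and 5.77 ± 1.43 (SD, n = 6) in controls (exact permutation p = 0.117). The 2 controls with the highest miR-142-3p, replicates 3 and 13, had markers of 7.03 and 7.21, the highest of their group. OS replicates 15 and 18, the highest in OS, had 6.36 and 6.85, the highest of theirs. With the marker as a covariate miR-142-3p stayed lower in OS, at -2.66 (adjusted p = 0.0112 by limma), and without control replicates 3 and 13 at -2.81 (limma adjusted p = 0.0243). For miR-142-5p the same fits gave -0.51 and -0.67, for mmu-miR-223 -0.51 and -0.65, and for rno-miR-223 -0.41 and -0.44, none of which passed (limma adjusted p between 0.258 and 0.512).
Relative to miR-451 within each mouse, miR-142-3p fell by 2.14 in OS (-7.91 ± 1.13 in OS, n = 8, and -5.78 ± 0.71 in controls, n = 6; exact permutation adjusted p = 0.00824). For the other members the change relative to miR-451, OS minus control, was upward and did not pass. It was 0.25 for miR-142-5p (exact permutation adjusted p = 0.701), 0.94 for mmu-miR-223 (adjusted p = 0.251) and 1.19 for rno-miR-223 (adjusted p = 0.229). Relative to miR-150, a miRNA of mature lymphocytes, miR-142-3p was 12.0-fold lower in OS (-2.06 ± 1.28 in OS, n = 8, and 1.53 ± 1.41 in controls, n = 6; exact permutation adjusted p = 0.00599), while mmu-miR-223 gave -0.52 (adjusted p = 0.211) and rno-miR-223 -0.27 (adjusted p = 0.532). Without control replicates 3 and 13 the differences of miR-142-3p were -1.86 to miR-451 and -2.80 to miR-150, and neither passed (exact permutation adjusted p = 0.05 for each).

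Other miRNAs of blood cells moved less than miR-142-3p. Of 8 lymphocyte assays 2 were lower, miR-181c (log2 difference -1.31) and miR-181d (-1.07), and 0 were higher, where 6.44% of all 388 miRNAs were called lower and 6.19% higher. The median of the list was -0.17, against -0.00 over all miRNAs. miR-150 itself was at 0.02. Of 7 assays of miRNAs tied to inflammatory responses of white blood cells 1 was lower (against 6.44% of all miRNAs), miR-146b (-1.29, limma adjusted p = 0.0407), with its rat assay at -0.98 (adjusted p = 0.106) and a median of -0.75. Of 5 platelet assays 0 passed, and miR-126-5p (-0.73) and miR-126-3p (-0.63) had the smallest p (limma adjusted p = 0.131 and 0.154). Of 6 red blood cell assays 2 were lower (against 6.44% of all miRNAs), miR-144 (-2.38, limma adjusted p = 0.0131) and miR-16-1* (-1.68, adjusted p = 0.0432), with a median of -1.10. miR-451 was at -1.43 (limma adjusted p = 0.132). Of 12 epithelial assays 3 were lower (against 6.44% of all miRNAs), miR-205 (-3.98), miR-141 (-2.23) and miR-203 (-1.73), with a median of -1.09. miR-205 was among the miRNAs the study chose on these mice. The lists were mixed in direction. Below 0 lay 6 of the 8 lymphocyte, 4 of the 7 inflammatory and 2 of the 5 platelet assays. So did 4 of the 6 red blood cell and 10 of the 12 epithelial assays. The highest log2 differences were 0.97, 0.79, 0.60, 0.05 and 0.42 in the same order.
The summed normalized level of each list, on the log2 scale, was 5.43 to 6.69 in OS and 5.50 to 6.48 in controls for lymphocytes, 5.34 to 7.62 in OS and 7.04 to 7.99 in controls for the inflammatory list, and 7.07 to 8.12 in OS and 7.29 to 8.33 in controls for platelets. It was 9.64 to 12.97 in OS and 11.97 to 14.01 in controls for red blood cells, and 2.59 to 5.75 in OS and 5.67 to 6.76 in controls for epithelium. These sums add unlogged levels, leave out missing values and include the efficiency of primers. Each follows the highest assays of its list, as with miR-451 among red blood cell assays (mean 11.2 in OS and 12.6 in controls). They do not measure a cell type. The part of these other cells in the fall of miR-142-3p was not tested. The covariate and the within-mouse differences to miR-451 and miR-150 rest on single miRNAs and cannot divide the fall among cell types.

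Within groups, miR-142-3p did not track miR-223 in a way that could be shown. Pearson's r with mmu-miR-223 was -0.10 in OS (Spearman's rho -0.24, n = 8, exact permutation p = 0.822 for r and 0.582 for rho) and -0.43 in controls (rho -0.60, n = 6, exact permutation p = 0.399 and 0.242). With rno-miR-223 it was -0.43 in OS (rho -0.60, n = 8, exact permutation p = 0.277 and 0.132) and -0.46 in controls (rho -0.71, n = 6, exact permutation p = 0.354 and 0.136). Adjusted over the 4 relations, p for r lay between 0.531 and 0.822. Without the 2 mice farthest from the median of miR-142-3p, r with mmu-miR-223 was 0.09 in OS and 0.22 in controls, and with rno-miR-223 -0.56 in OS and 0.25 in controls, and the signs also turned with unscaled Cq. As a description, the 2 arms of miR-142 ran together with an r of 0.96 over the 8 OS mice and 0.72 over the 6 controls, and the 2 assays of miR-223 with 0.19 and 0.98.

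The miRNAs whose normalized levels were most like those of miR-142-3p over the 14 mice were miR-374 (r = 0.93), miR-15a (0.92), miR-103 (0.92), miR-144 (0.90) and miR-106b (0.90), out of 272 other miRNAs measured in every mouse. All 5 were called lower in OS, where 6.44% of all miRNAs were. Likeness over both groups favours miRNAs that share the fall of miR-142-3p, so this is no separate result. With group means removed miR-15a (0.86), miR-106b (0.84), miR-374 (0.82), miR-103 (0.82) and let-7i (0.81) led. For miR-142-5p the leading ones were let-7i (0.90), miR-15a (0.89), miR-106b (0.88), miR-107 (0.87) and miR-181c (0.86), close to its own value with the 3p arm (0.87). With group means removed they were let-7i (0.85), let-7i* (0.84), miR-17* (0.84), miR-15a (0.83) and miR-106b (0.81).
For mmu-miR-223 the nearest was its rat assay (0.76), then miR-205 (0.72), the rat assay of miR-146b (0.61), miR-1949 (0.61), miR-411 (0.57) and miR-29a* (0.56). With group means removed the rat assay was again the nearest (0.74), then miR-205 (0.62), rno-miR-28* (0.62), rno-miR-345-3p (0.60), miR-330* (0.59) and miR-139-5p (0.59). For rno-miR-223 the nearest was the mouse assay (0.76), then miR-455 (0.71), rno-miR-501 (0.58), miR-192* (0.54), let-7b* (0.54) and miR-145 (0.53). With group means removed miR-874 (0.76) was the nearest, then the mouse assay (0.74), miR-28* (0.71), miR-139-5p (0.70), miR-342-3p (0.69) and miR-455 (0.67). The points share their global mean, and miR-103, one of the 3 reference miRNAs of the study, was itself lower in OS (log2 difference -1.28, limma adjusted p = 0.0295), while miR-191 (0.42) and miR-423-3p (1.03) did not pass.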

How the data were processed

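Plasma of 8 mice with OS and 6 control mice was profiled by the authors with Exiqon qPCR panels for mouse (I and II) read on an LC480 instrument. They deposited non-normalized Cq values, on a log2 scale, for 768 wells per mouse, of which 13.9% to 24.7% were blank. The sources used here do not say whether these precede interplate calibration and outlier removal. The deposited table of fold changes and p-values holds the authors' own comparison, and only its well positions and names were used, which named 392 wells and 389 miRNAs. The methods name more OS mice than the 8 analysed here. A Cq gives no count of molecules, so precision rests on the spread between mice.

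Following the methods, Cq values above 37 counted as missing, a miRNA was dropped when at least 75% of mice lacked it (388 remained), and scaling was to the global mean per mouse, in which missing values took the group mean or Cq 38. Groups were compared with limma 3.58.1 in R 4.3.3 (two-sided, Benjamini-Hochberg, threshold 0.05, no covariate) and by exact permutation over all 3003 splits in Python 3.11.15. Within-mouse differences were adjusted over 9, and those with miR-142-5p, added later, over 14. Alternatives were scalings, Cq limits, filters, filling, the methods' t-test, the marker as a covariate and single mice left out. Scaling to panel I, the marker limit of 7 and the arm pairs were added after the data were seen. Named were the members, listed miRNAs past the threshold or with the 2 smallest p of a list, the 5 most alike per member, and the reference and marker miRNAs. The members and lists were chosen with earlier results of these data known. In 20 simulated tables of 388 miRNAs, OS against control, 33.8%, 84.2% and 97.0% of log2 changes of 1, 2 and 3 were called, and 3.63% of calls were false. The simulated miRNAs varied independently of each other and were not scaled again, so these shares need not hold for the measured miRNAs.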

Additional observations from a re-analysis of the deposited data

Results flagged for a closer look

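Each value by group was examined for a mouse far from the others of its group, in 38 groups of values, of which chance would set apart about 1 in 20. OS replicate 10 stood apart in 3. Its mouse assay of miR-223 minus its rat assay was -0.37, where the other OS mice lay between 0.23 and 0.61. Its rno-miR-223 minus miR-150 was 2.86, where the others lay between 0.06 and 1.35. Its miR-142-5p minus miR-451 was -7.35, where the others lay between -10.55 and -9.57, and this mouse also had the lowest haemolysis marker, 1.05.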

How the results depend on the processing

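No paired analysis was made because the labels pair no OS mouse with a control and do not say which mice shared a litter. miR-142-3p passed under each of 13 other settings (-4.00 to -2.66, limma adjusted p 0.00213 to 0.0243) and without any 1 mouse (-3.89 to -3.15), and the arm difference of miR-142 likewise passed without any 1 mouse (-2.53 to -2.04), with medians (-2.02) and without the mice with a haemolysis marker over 7, control replicates 3 and 13 (-2.13). In all, 393 of the alternative values kept their direction and side of the threshold or stayed close, 18 counts moved, 10 values turned sign, 5 came to pass and 4 no longer passed; the cause was not tested.

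Without the mice with a marker over 7, the differences of miR-142-3p to mmu-miR-223 (-2.15), rno-miR-223 (-2.37), miR-451 (-1.86) and miR-150 (-2.80) no longer passed, each with an exact permutation adjusted p of 0.05; 4 controls then remained. mmu-miR-223 ranged from -0.93 (unscaled) to -0.19 (scaled to panel I) over 13 other settings and passed limma in none. rno-miR-223 turned to 0.0557 when scaled to panel I. miR-142-5p ranged from -1.38 (without OS replicate 15, passing) to -0.85 without single mice. miR-142-5p minus miR-451 turned to -0.155 with medians and ranged from -0.0890 (without OS replicate 10) to 0.41 without single mice. miR-142-5p minus miR-150 changed by -1.21 between groups in the main comparison and did not pass (exact permutation adjusted p = 0.116). This difference passed with medians (-1.59) and without control replicate 1, and ranged from -1.49 to -0.81 without single mice. The mouse minus the rat assay of miR-223 ranged from -0.29 to -0.15 without single mice and passed without OS replicate 17 (-0.28) and OS replicate 19 (-0.29).

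The correlation of miR-142-3p in OS was 0.53 with mmu-miR-223 and 0.51 with rno-miR-223 when scaled to the 3 reference miRNAs. Unscaled it was 0.38 and 0.25 in OS, and 0.59 and 0.52 in controls. With mmu-miR-223 in OS it ranged from -0.42 to 0.10 without single mice, the highest without OS replicate 19. Of 49 called miRNAs there were 21 unscaled, 29 with a Cq limit of 35 (336 tested), 24 by the methods' t-test, 17 with the marker as a covariate and 20 without mice with a marker over 7, and 20 (without control replicate 3) to 73 (without OS replicate 15) without single mice. Of 12 called arm differences there was 1 with the covariate, 1 without mice with a marker over 7, and 3 to 15 without single mice. A Cq near 37 limits low miRNAs, which none of the 4 assays approached.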
